A study of Rattus norvegicus with 16 samples.

Results

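The chemokine system was examined in the left ventricle (LV) of rats with cardiac volume overload (VO) from an aortocaval fistula (ACF), an opening between the aorta and the vena cava that returns blood to the right heart and overfills the ventricles. The members were all genes with 1 symbol on the array whose symbol names a chemokine (Ccl, Cxcl, Cx3cl1 or Xcl1), a chemokine receptor (Ccr, Cxcr or Cx3cr1) or an atypical chemokine receptor (Ackr), with Pf4 and Ppbp added. This gave 47 genes of 14218 with 1 symbol, of which 31 encoded ligands and 16 encoded receptors. Total RNA of the LV of adult male Sprague-Dawley rats, aged 8 to 10 weeks when the ACF was made, was hybridized to 16 arrays, 4 from controls and 4 each from rats at 8, 16 and 24 weeks after the creation of the ACF. No group carried a transgene, a mutation or a drug, and the study's methods describe 8 weeks of VO as compensated hypertrophy (CH) and 16 weeks as heart failure (HF). The labels call the controls baseline samples, while the study's methods describe sham-operated controls. The same 4 controls served at 8, 16 and 24 weeks, so as a group they cannot match the age of each ACF group. VO and the weeks that passed since the operation therefore cannot be fully told apart. If the controls were baseline rats, the operation cannot be told apart from VO and these weeks either. The 4 arrays titled 24 weeks carry descriptions of 24, 25, 26 and 27 weeks.

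Chemokines are small secreted proteins that draw leucocytes along a gradient held on matrix and endothelium. They are grouped by the spacing of their first cysteines into CC, CXC, CX3C and XC ligands, and they signal through receptors coupled to inhibitory G proteins. Atypical receptors bind chemokines without that signal and take them up, carry them across cells or hold them. In the injured heart the CC ligands of Ccr2 are known for recruiting monocytes, the CXC ligands of Cxcr2 for recruiting neutrophils, and Cxcl12 and Cx3cl1 for steady-state guidance of leucocytes and vascular cells.

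The sequences that precede the start of 4 genes are shown as examples of the members that passed at 16 weeks: Ackr2 and Ccr1, the receptors that were higher, Ccl7, a ligand that was higher, and Xcl1, the ligand that was lower. Each runs 5′ to 3′ from 250 bases before to 50 bases after the RefSeq start in build GRCr8. Capitals mark matches on either strand to TATAAA (the TATA box), TGANTCA (the AP-1 site), GAGGAA (the core bound by the myeloid factor PU.1) and the NF-kappaB consensus.
Ackr2, chr8:130448036-130448335, plus strand: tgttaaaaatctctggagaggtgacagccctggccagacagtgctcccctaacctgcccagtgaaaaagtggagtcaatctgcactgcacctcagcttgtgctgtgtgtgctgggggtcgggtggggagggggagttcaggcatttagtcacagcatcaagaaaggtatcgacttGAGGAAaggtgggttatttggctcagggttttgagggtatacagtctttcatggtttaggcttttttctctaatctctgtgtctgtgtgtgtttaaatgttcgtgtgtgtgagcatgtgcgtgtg
Ccr1, chr8:132439217-132439516, minus strand: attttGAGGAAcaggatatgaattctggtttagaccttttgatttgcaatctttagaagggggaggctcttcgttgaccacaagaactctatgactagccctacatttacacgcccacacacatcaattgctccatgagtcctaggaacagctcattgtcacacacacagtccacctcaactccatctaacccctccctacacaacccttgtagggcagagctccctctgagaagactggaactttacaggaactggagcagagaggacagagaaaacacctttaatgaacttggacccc
Ccl7, chr10:67513845-67514144, plus strand: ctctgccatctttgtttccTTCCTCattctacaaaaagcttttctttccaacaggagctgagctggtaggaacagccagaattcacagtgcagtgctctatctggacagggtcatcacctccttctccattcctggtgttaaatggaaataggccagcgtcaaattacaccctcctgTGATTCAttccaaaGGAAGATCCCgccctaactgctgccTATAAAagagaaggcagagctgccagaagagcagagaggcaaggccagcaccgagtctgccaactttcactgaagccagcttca
Xcl1, chr13:79785391-79785690, minus strand: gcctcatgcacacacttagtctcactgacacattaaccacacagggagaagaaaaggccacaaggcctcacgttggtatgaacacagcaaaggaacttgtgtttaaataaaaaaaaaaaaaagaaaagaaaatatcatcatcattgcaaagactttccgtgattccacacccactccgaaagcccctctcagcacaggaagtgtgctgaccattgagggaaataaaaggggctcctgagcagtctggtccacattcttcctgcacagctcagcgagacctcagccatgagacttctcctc
RefSeq promoters were matched for 36 of the 47 members. Among the promoters shown, that of Ccl7 held all of these motifs, with TATAAA at -34, the NF-kappaB consensus at -59, TGATTCA at -73 and the reverse of GAGGAA at -231 from the start, none overlapping another. The promoters of Ackr2 and Ccr1 held GAGGAA alone, at -75 and -245, and that of Xcl1 held none of these letters. GAGGAA was found in 14 of the 36 promoters, against 27.6% of 33469 promoters of the same length. The NF-kappaB consensus was found in 9, against 7.51% of all, TATAAA in 11, against 14.2%, and TGANTCA in 5, against 7.33%. The 9 with the NF-kappaB consensus were those of Ccl7, Ccl9, Ccl20, Ccr3, Cxcl1, Cxcl2, Cxcl6, Cxcl10 and Cxcl11. A match is a description of letters and not of binding.

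The deposited values were log2 intensities, and each array was centred on its own median before the groups were compared. The array medians lay at 2 levels, 6.13 to 6.17 in 9 arrays (4 control, 3 at 8 weeks and 2 at 16 weeks) and 5.92 to 5.96 in 7 arrays (replicate 2 at 8 weeks, replicates 3 and 4 at 16 weeks and all 4 at 24 weeks). The level therefore could be compared within groups at 8 and 16 weeks and cannot be told apart from the group at 24 weeks. The cardiomyocyte genes that define the tissue were bright throughout, with array means of 11 ventricular markers between 13.57 and 13.90, and none of the 11 passed the test in any comparison with control. Array means of 3 atrial markers ranged from 5.87 (control replicate 3) to 11.65 (24-week replicate 3) and varied within every group. No 2 of the 16 arrays held identical values. The labels do not say that each array was a separate rat. The p-values set a difference in means against the spread between these arrays, which are treated as independent. If arrays shared a rat, the p-values could be too small.

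At 16 weeks, in the HF phase, 8 members were higher than in controls and 1 was lower. The atypical receptor Ackr2, the receptor Ccr1, the CC ligands Ccl7, Ccl27, Ccl6 and Ccl9, and the CXC ligands Pf4 and Cxcl16 were higher, by 0.41 to 1.37 on the log2 scale. Xcl1, a ligand made by activated T and NK cells, was lower by 0.82. At 24 weeks Ackr2 was the only member that passed (log2 difference 1.03), and at 8 weeks none did. The test was limma's moderated test over all 14218 genes, with a Benjamini-Hochberg adjusted p under 0.05 counted as passing.

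These counts are read against the whole array. At 16 weeks 9 of 47 members passed (19.1%), against 9.09% of all genes tested, with 8 higher (17%, against 5.83% of all genes) and 1 lower (2.13%, against 3.26%). At 16 weeks 16 members had an unadjusted p under 0.05 (34%, against 24.3%). At 24 weeks the share was 1 of 47 (2.13%), against 0.907% of all genes, and 10 had an unadjusted p under 0.05 (21.3%, against 16.2%). At 8 weeks it was 0 of 47, against 0.0563% of all genes, and 10 members (21.3%) had an unadjusted p under 0.05, against 7.82% of all genes. Among these 10, 8 were higher (4.59% of all genes) and 2 lower (3.23%), and the smallest adjusted p by limma was 0.253, for Ackr2. The 47 members had a median log2 difference of 0.10 (8 weeks), 0.13 (16 weeks) and 0.06 (24 weeks), beside -0.003, -0.0022 and 0.0006 for all genes. At the threshold of the study's methods, an unadjusted p under 0.05 in a test of 2 groups without moderation and a fold above 1.5, 9 members were higher at 16 weeks (3.76% of all genes) and 1 lower (1.6%), 2 were higher at 8 weeks (1.04%), 2 were higher at 24 weeks (1.9%), and 1 was higher at 16 than at 8 weeks (0.654%). The 3 comparisons share the 4 control arrays.

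**Figure D1:**
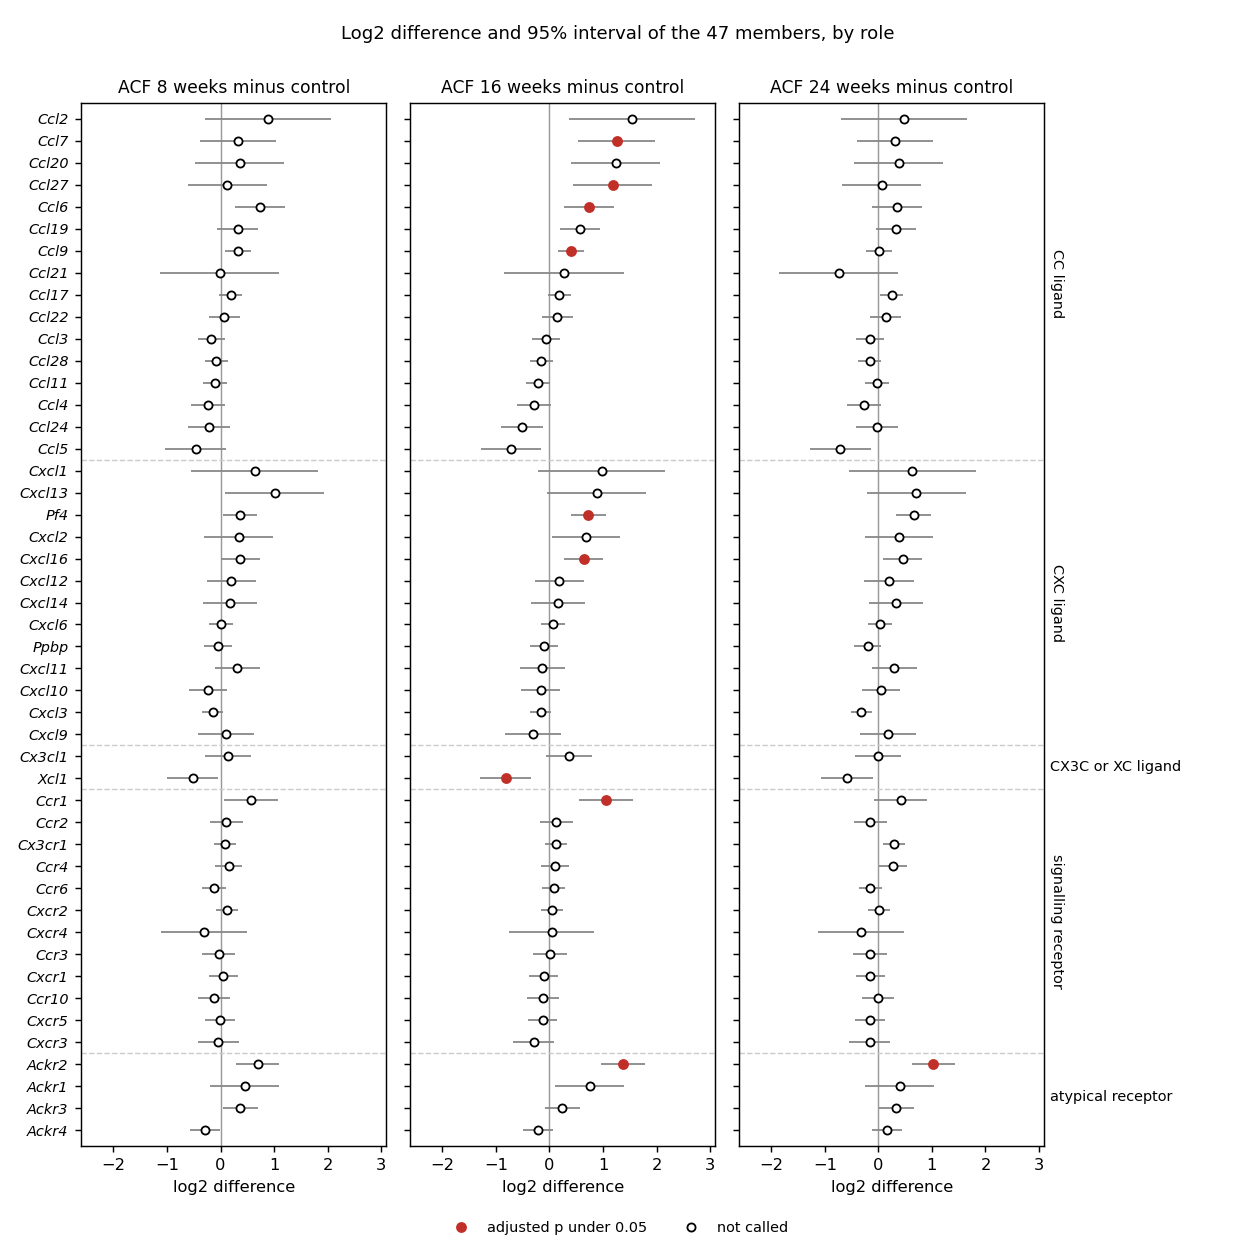
Log2 difference from control (x axis, with the 95% interval of limma's fit as a line) for each of the 47 members (y axis), grouped by role and ordered by the difference at 16 weeks; filled red points have an adjusted p under 0.05. The 16-week panel holds 9 filled points, the 24-week panel 1 (Ackr2) and the 8-week panel none.

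Markers of cell types were counted from lists. Of all genes, 0.0492% passed as higher at 8 weeks, 5.83% at 16 weeks and 0.612% at 24 weeks. The shares that passed as lower were 3.26% at 16 weeks and 0.295% at 24 weeks. All 13 measured macrophage markers, Mrc1, Cd163 and C1qa among them, passed as higher at 16 weeks (median log2 difference 1.09), 2 of 13 did at 8 weeks and 5 of 13 at 24 weeks. Their mean by array was 7.25 to 7.53 in controls, 8.08 to 8.40 at 8 weeks, 8.26 to 9.08 at 16 weeks and 7.75 to 8.34 at 24 weeks, and no ACF array fell within the control range. None of the 7 neutrophil markers and none of the 4 platelet markers passed in any comparison with control. Of the 12 markers of T or NK cells, Lck passed as lower at 16 weeks (log2 difference -0.58), and 2 of the 12 had differences above 0. Of 10 fibroblast markers 4 were higher at 16 weeks (Postn, Dcn, Col1a2 and Col3a1) and 1 at 24 weeks (Postn). Among the other lists, single markers passed at 16 weeks for dendritic cells (Clec10a, 0.91), endothelium (Vwf, 1.31), lymphatic endothelium (Pdpn, 1.06) and mast cells (Tpsb2, -0.41). At 24 weeks 1 of 8 endothelial markers passed as higher and 1 of 3 B cell markers as lower. The part of these cells in the chemokine differences was not tested, and in whole LV fewer cells of a type and less RNA per cell cannot be told apart.

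Ackr2, the decoy receptor that binds and degrades inflammatory CC ligands, had the smallest adjusted p of the members at 16 weeks. Its centred log2 intensities were 6.001, 5.98, 6.01 and 6.09 in the control arrays, 6.73, 7.04, 6.76 and 6.32 at 8 weeks, 7.26, 7.47, 7.36 and 7.50 at 16 weeks and 6.84, 7.80, 6.89 and 6.65 at 24 weeks. All 12 ACF arrays lay above all 4 controls, which held for 1 of the 47 members and 1.13% of all genes. The mean was 7.39 ± 0.11 at 16 weeks, against 6.02 ± 0.05 in controls (SD, n = 4 each), a 2.59-fold difference with a log2 SE of 0.19 (limma, adjusted p = 0.00077). At 24 weeks it was 7.05 ± 0.51 (2.04-fold above control, limma adjusted p = 0.022), and at 8 weeks 6.72 ± 0.30 (1.62-fold, adjusted p = 0.25). The exact two-sided permutation p was 0.0286 at each time, the smallest that 4 against 4 arrays can give. A second probe set for Ackr2 gave smaller log2 differences in the same direction, 0.31 at 8 weeks, 0.58 at 16 weeks and 0.34 at 24 weeks. The call at 24 weeks was absent without control replicate 1, 2 or 3, without 24-week replicate 3, and in a fit that blocked on array level (log2 difference 0.81, limma adjusted p = 0.22). That fit, here and below, used the values as deposited, not centred, so it differs from the main fit in scaling as well.

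The other 3 atypical receptors did not pass. Ackr1, which carries chemokines across venules, had 5.66, 5.45, 5.54 and 5.55 in controls, 5.38, 5.81, 6.49 and 6.34 at 8 weeks, 6.85, 6.70, 5.78 and 5.88 at 16 weeks and 5.67, 5.43, 6.90 and 5.78 at 24 weeks. The 16-week arrays were all above the controls (log2 difference 0.75, limma adjusted p = 0.14), with the 2 brightest of them at the higher array level. Among arrays at that level alone the 16-week difference of Ackr1 passed. Ackr3, which takes up Cxcl12, had 10.34, 10.32, 10.45 and 10.52 in controls, 10.89, 10.57, 10.85 and 10.81 at 8 weeks, 10.27, 10.49, 10.95 and 10.88 at 16 weeks and 10.49, 10.76, 11.17 and 10.55 at 24 weeks. The 8-week arrays were all above the controls and the other ACF groups overlapped them, with log2 differences of 0.37, 0.24 and 0.33. Ackr4, which takes up Ccl19 and Ccl21, had -0.28, -0.21 and 0.15 at the same times.

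Of the 16 CC ligands, 4 passed as higher at 16 weeks (against 5.83% of all genes) and none as lower, and 10 had differences above 0 (against 49.6% of all genes). Ccl7, a monocyte attractant that acts through Ccr1, Ccr2 and Ccr3, had 5.42, 5.62, 5.39 and 5.84 in controls, 5.71, 4.92, 6.55 and 6.39 at 8 weeks, 6.84, 7.56, 6.12 and 6.77 at 16 weeks and 6.03, 6.05, 6.36 and 5.07 at 24 weeks. The 16-week arrays were all above the controls, while the 8-week and 24-week groups each held 1 array below every control. At 16 weeks the mean of Ccl7 was 6.82 ± 0.59, against 5.57 ± 0.21 in controls (2.38-fold, log2 SE 0.34, limma adjusted p = 0.029). The call for Ccl7 was lost without control replicate 1, 2 or 3 or 16-week replicate 1 or 2, where the difference was 1.01 to 1.27. Ccl2, the principal ligand of Ccr2, had 6.69, 6.73, 6.89 and 6.63 in controls, 7.76, 5.74, 8.78 and 8.18 at 8 weeks, 8.05, 9.56, 6.88 and 8.59 at 16 weeks and 7.41, 7.65, 7.61 and 6.21 at 24 weeks. Within each ACF group, the array with the lowest Ccl2 also had the lowest Ccl7, and these were replicate 2 at 8 weeks, replicate 3 at 16 weeks and replicate 4 at 24 weeks. The 2 genes lie near each other in the CC cluster of chromosome 10. Ccl2 at 16 weeks had the largest difference of the 47 members, 1.53 (95% interval 0.36 to 2.71), and it did not pass (limma adjusted p = 0.096, exact permutation p = 0.057). Replicate 3 at 16 weeks, at 6.88, lay within the control range of 6.63 to 6.89. Ccl2 passed in a fit of the values as deposited that blocked on array level (2.36, limma adjusted p = 0.0053) and among arrays at the higher level alone (2.07, limma adjusted p = 0.0043). It also passed without 16-week replicate 3 (2.00, limma adjusted p = 0.033) and without 8-week replicate 2 (1.53, limma adjusted p = 0.035).

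Ccl6 and Ccl9, known in the mouse as ligands of Ccr1, were both higher at 16 weeks. Ccl6 had 9.01, 8.60, 8.98 and 8.54 in controls, 9.64, 8.84, 10.12 and 9.51 at 8 weeks, 9.70, 9.68, 9.05 and 9.69 at 16 weeks and 9.34, 9.23, 9.20 and 8.77 at 24 weeks. Its mean was 9.53 ± 0.32 at 16 weeks, against 8.79 ± 0.25 in controls (1.67-fold, limma adjusted p = 0.045). That call was close to the threshold and held in 5 of the 16 fits that left out 1 array, with differences of 0.66 to 0.90 over all 16. It was lost without any 1 of the 4 controls and without 16-week replicate 1, 2 or 4, and without replicate 1 or 4 at 8 weeks or 1 or 3 at 24 weeks. The gene overlaps LOC103693406. The difference of Ccl6 was nearly the same size at 8 weeks, 0.74, where 1 of the 4 arrays overlapped the controls (limma adjusted p = 0.32). Ccl9 was dim, with 3.45, 3.15, 3.40 and 3.21 in controls, 3.52, 3.78, 3.65 and 3.54 at 8 weeks, 3.47, 4.00, 3.62 and 3.75 at 16 weeks and 3.50, 3.25, 3.25 and 3.26 at 24 weeks. The 8-week and 16-week arrays of Ccl9 lay above all controls and the 24-week arrays did not (16 weeks: log2 difference 0.41, SE 0.12, limma adjusted p = 0.034). Without control replicate 2, 3 or 4 or 16-week replicate 2 or 4 the call for Ccl9 was lost, at differences of 0.31 to 0.44. It was also lost in a fit that blocked on array level (0.36, limma adjusted p = 0.087) and among arrays at the higher level alone (0.43, limma adjusted p = 0.087). No detection calls came with the values, so a dim probe set cannot be told from background.

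Ccl27, which guides T cells through Ccr10 and is best known in skin, was far above the controls in 2 of the 4 arrays at 16 weeks. Its values were 6.06, 6.10, 6.13 and 6.32 in controls, 6.33, 6.38, 6.31 and 6.09 at 8 weeks, 8.24, 8.35, 6.36 and 6.36 at 16 weeks and 6.24, 6.49, 6.06 and 6.06 at 24 weeks. The 2 high arrays were those of the 16-week group at the higher array level, a level that the controls and 3 arrays at 8 weeks shared without values above 6.33. Of the 12 ACF arrays 7 lay above all controls, the other 5 of them at 6.33 to 6.49. The 16-week difference was 1.18 (95% interval 0.44 to 1.91, limma adjusted p = 0.043), and among arrays at the higher level alone it was 2.15. Leaving out 16-week replicate 1 or 2 gave no call for Ccl27, with differences of 0.88 and 0.84. The call held in 4 of the 16 fits that left out 1 array (16-week replicate 3 or 4, 24-week replicate 2 or 4). The gene overlaps Il11ra1, whose own probe set read 8.73, 9.12, 9.30 and 9.40 in the same 16-week arrays, against 9.25 to 9.49 in controls. Its receptor Ccr10 had log2 differences of -0.13 at 8 weeks, -0.13 at 16 weeks and -0.0019 at 24 weeks.

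Among the other CC ligands, chosen here after their values were seen, Ccl19 and Ccl20 had all 4 arrays at 16 weeks above the controls. Ccl19, a ligand of Ccr7, had 6.47, 6.34, 6.67 and 6.75 in controls, 6.79, 6.47, 6.84 and 7.39 at 8 weeks, 7.02, 7.20, 7.48 and 6.83 at 16 weeks and 7.08, 6.56, 6.99 and 6.92 at 24 weeks (16-week log2 difference 0.58, limma adjusted p = 0.051). Ccl20, the ligand of Ccr6, had 7.57, 5.06, 5.02 and 5.52 at 16 weeks, against 4.56, 4.76, 4.60 and 4.28 in controls (log2 difference 1.24, limma adjusted p = 0.058). Replicate 1 at 16 weeks was the highest of the 16 arrays for Ccl20. Ccl5, a ligand of Ccr1 that T cells secrete, had 7.00, 8.11, 8.09 and 7.69 at 16 weeks, against 7.91, 8.69, 8.76 and 8.40 in controls (log2 difference -0.72, limma adjusted p = 0.11). At 24 weeks the difference of Ccl5 was -0.71 and at 8 weeks -0.46, with 1 control array inside the range of the ACF arrays each time. The eosinophil attractants Ccl11 and Ccl24 had differences of -0.21 and -0.52 at 16 weeks, and the inflammatory ligands Ccl3 and Ccl4 had -0.07 and -0.30. Ccl17 and Ccl22, ligands of Ccr4, had 0.18 and 0.14, and Ccl28, which shares Ccr10 with Ccl27, had -0.15. Ccl11 and Ccl28 were dim, with means of 3.93 and 4.18 over the 16 arrays, and cannot be told from background. Ccl21, the other ligand of Ccr7, ranged from 8.74 to 9.16 in controls and had 9.77, 6.16, 9.14 and 7.93 at 24 weeks.

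**Figure D2:**
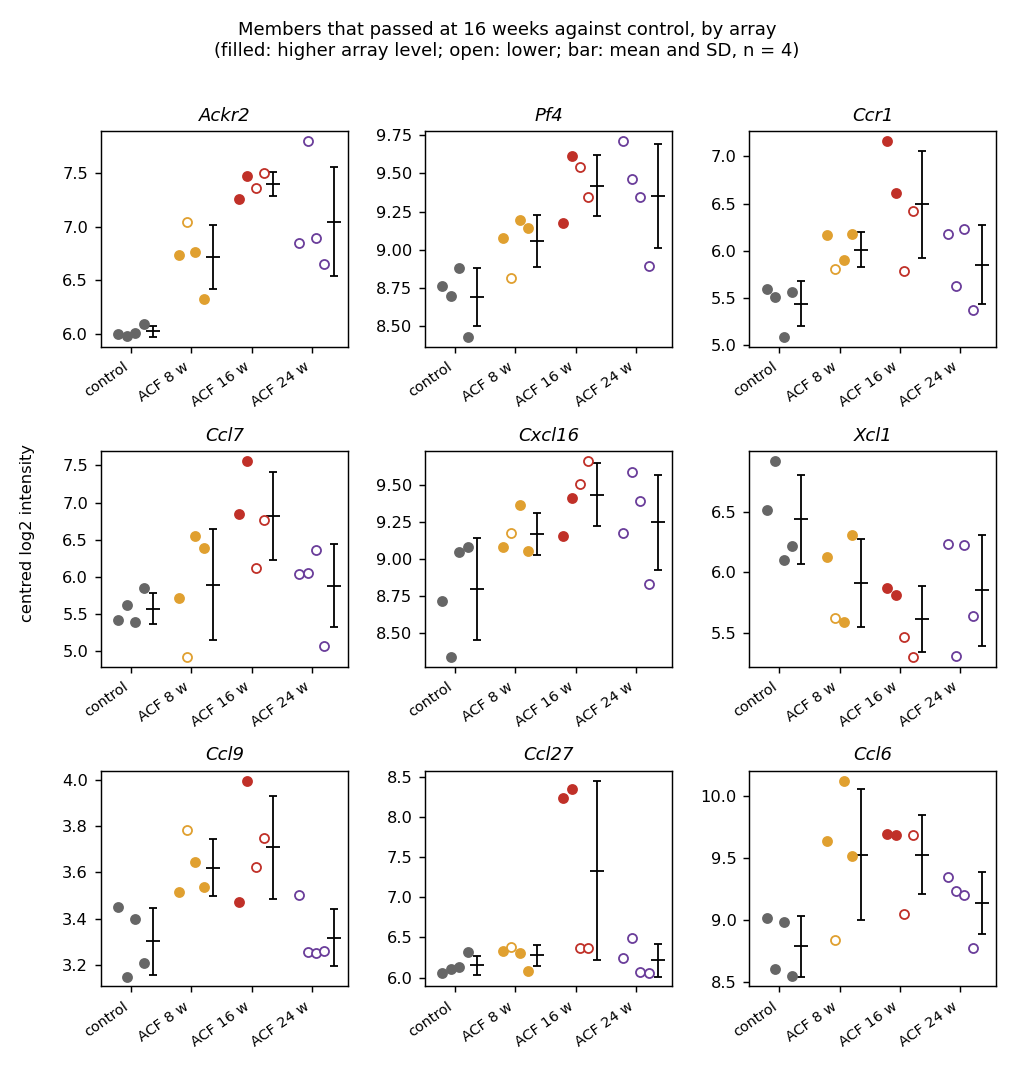
Centred log2 intensity (y axis) in each of the 16 arrays, by group (x axis), for the 9 members that passed at 16 weeks against control; filled points are arrays at the higher array level, open points those at the lower level, and the bar is the mean with SD (n = 4). Ackr2 lies above 6.3 in every ACF array and below 6.1 in every control array, and Ccl27 lies above 8 in 2 of the 4 arrays at 16 weeks.

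Of the 13 CXC ligands, 2, Pf4 and Cxcl16, passed as higher at 16 weeks, against 5.83% of all genes. None passed at 8 weeks (against 0.0563% of all genes) or at 24 weeks (against 0.907%). Pf4, platelet factor 4, which platelets store and macrophages also make, had 8.77, 8.70, 8.88 and 8.43 in controls, 9.08, 8.82, 9.19 and 9.14 at 8 weeks, 9.17, 9.62, 9.54 and 9.35 at 16 weeks and 9.71, 9.46, 9.35 and 8.89 at 24 weeks. Of the 12 ACF arrays, 11 lay above all controls. The mean was 9.42 ± 0.20 at 16 weeks, against 8.69 ± 0.19 in controls (1.65-fold, log2 SE 0.15, limma adjusted p = 0.0084). At 24 weeks Pf4 was 1.58-fold above control with no overlap (limma adjusted p = 0.052), and it passed without 24-week replicate 4 (log2 difference 0.81, limma adjusted p = 0.0073), 8-week replicate 2 or 16-week replicate 1. Ppbp, the other platelet chemokine, had 4.45, 4.48, 4.48 and 4.45 in controls, 4.59, 4.36, 4.33 and 4.40 at 8 weeks, 4.52, 4.22, 4.41 and 4.29 at 16 weeks and 4.21, 4.32, 3.89 and 4.62 at 24 weeks. Its log2 differences were -0.04, -0.10 and -0.20, and the groups overlapped at each time. Ppbp was dim, with a mean of 4.38 over the 16 arrays, and cannot be told from background. The 4 platelet markers had array means of 6.24 to 6.42 at 16 weeks, against 6.40 to 6.61 in controls.

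Cxcl16, a membrane-bound ligand of Cxcr6 that macrophages display, had 8.72, 8.34, 9.05 and 9.08 in controls, 9.08, 9.18, 9.37 and 9.06 at 8 weeks, 9.16, 9.41, 9.51 and 9.66 at 16 weeks and 9.18, 9.59, 9.39 and 8.84 at 24 weeks. The 16-week arrays were all above the controls. Its mean was 9.43 ± 0.21 at 16 weeks, against 8.80 ± 0.35 in controls (1.55-fold, limma adjusted p = 0.029). The call for Cxcl16 was lost without control replicate 1 or 2 or 16-week replicate 2, 3 or 4 (differences 0.48 to 0.64). In a fit that blocked on array level, Cxcl16 differed by 0.54 at 16 weeks (limma adjusted p = 0.090). The gene overlaps Zmynd15, whose own probe set had a log2 difference of -0.0035 at 16 weeks.

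Cxcl12, the ligand of Cxcr4 and Ackr3, had 10.47, 10.72, 11.14 and 11.06 in controls, 10.63, 10.78, 11.08 and 11.69 at 8 weeks, 10.54, 11.14, 11.20 and 11.25 at 16 weeks and 10.86, 10.89, 11.40 and 11.02 at 24 weeks. The groups overlapped throughout, with log2 differences of 0.20, 0.19 and 0.20 (95% interval at 16 weeks -0.27 to 0.65). The 2 other probe sets of Cxcl12 had differences of -0.15 and -0.13 at 16 weeks, so that its probe sets disagreed in sign.

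The neutrophil attractants were uneven between arrays. Cxcl1 had 5.05, 5.40, 5.44 and 5.08 in controls, 4.96, 4.85, 6.86 and 6.87 at 8 weeks, 5.44, 6.40, 6.64 and 6.41 at 16 weeks and 5.10, 5.53, 7.92 and 4.98 at 24 weeks. At 8 weeks the 2 high arrays for Cxcl1, replicates 3 and 4, were also the 2 highest for Ccl2, and at 24 weeks 1 array of 4 was high. The array means of the neutrophil markers were 6.08 and 6.19 in those 2 arrays at 8 weeks, against 4.80 to 5.51 in controls. They were within the control range in the brightest Cxcl1 array (5.15, 24-week replicate 3) and in the 3 high Cxcl1 arrays at 16 weeks (5.30 to 5.48). The brightest Cxcl1 array also had the highest atrial marker mean, 11.65. The array with the next highest atrial mean, 8-week replicate 2 (11.11), had the lowest Cxcl1. How the atrial markers relate to Cxcl1 was not tested. Cxcl2 had 3.91, 4.31, 5.85 and 4.04 at 16 weeks, against 3.79, 3.82, 3.97 and 3.81 in controls. Cxcl3 was the only member below all controls at 24 weeks, with 5.93, 5.68, 5.92 and 5.90, against 6.24, 6.14, 6.23 and 6.12 in controls (log2 difference -0.32, limma adjusted p = 0.10), and its 5 probe sets disagreed in sign at that time. Cxcl6 had differences of 0.01 at 8 weeks, 0.07 at 16 weeks and 0.03 at 24 weeks. Cxcl2 and Cxcl6 were dim, with means of 4.20 and 4.42 over the 16 arrays.

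The interferon-induced ligands of Cxcr3 did not pass in the main fit. At 16 weeks the log2 differences were -0.30 for Cxcl9, -0.17 for Cxcl10 and -0.14 for Cxcl11, and at 24 weeks they were 0.18, 0.04 and 0.29. Cxcl9 passed as lower at 16 weeks among arrays at the higher level alone and in the fit that blocked on array level. Cxcl10 and Cxcl11 overlap Art3, whose own probe set had a difference of 0.11 at 16 weeks. Cxcl13, the B cell attractant that acts through Cxcr5, had the widest control range of the 47 members, from 4.63 to 6.54, and differences of 1.01 at 8 weeks, 0.88 at 16 weeks and 0.71 at 24 weeks. The homeostatic ligand Cxcl14 had 0.17, 0.16 and 0.32.

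**Figure D3:**
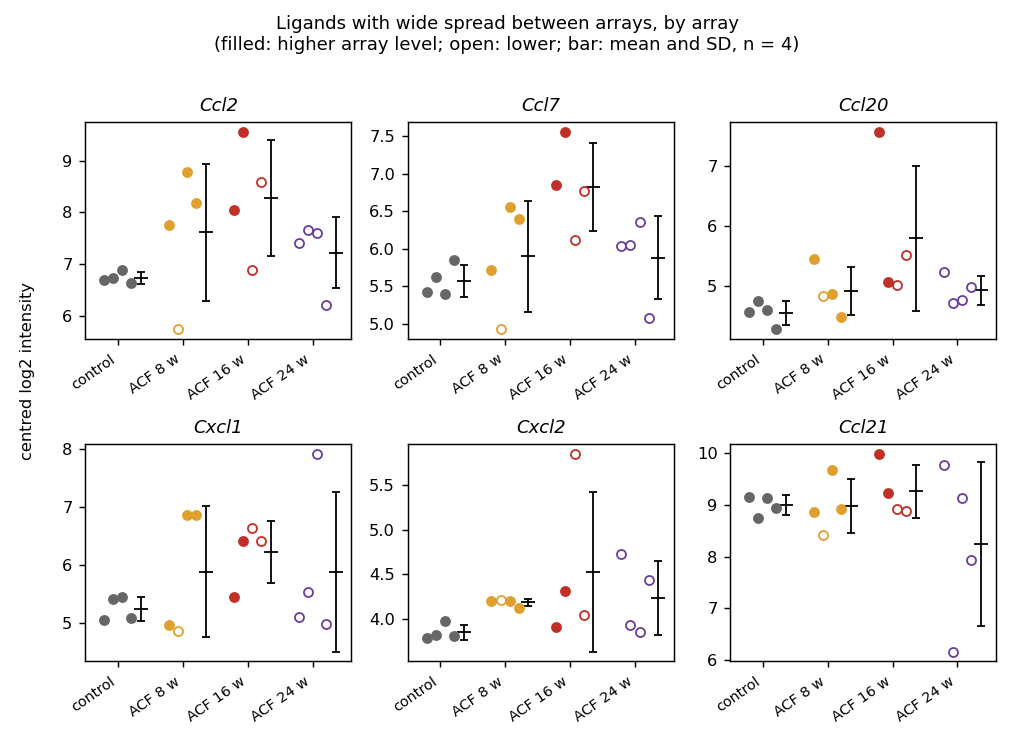
Centred log2 intensity (y axis) in each of the 16 arrays, by group (x axis), for 6 ligands with wide spread within ACF groups, chosen after their values were seen; filled points are arrays at the higher array level, open points those at the lower level, and the bar is the mean with SD (n = 4). Ccl2 and Ccl7 share their lowest array in each ACF group, and Ccl20, Cxcl1, Cxcl2 and Ccl21 each have 1 array far from the other 3 in at least 1 group.

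Xcl1, which T and NK cells make and which draws dendritic cells, was the member that passed as lower. It had 6.52, 6.92, 6.10 and 6.22 in controls, 6.13, 5.62, 5.60 and 6.31 at 8 weeks, 5.87, 5.82, 5.47 and 5.31 at 16 weeks and 6.23, 5.31, 6.22 and 5.64 at 24 weeks. The 16-week arrays were all below the controls, and the other ACF groups overlapped them. The mean was 5.61 ± 0.27 at 16 weeks, against 6.44 ± 0.36 in controls (log2 difference -0.82, SE 0.23, limma adjusted p = 0.033). The call for Xcl1 was lost without control replicate 1 or 2 or 16-week replicate 3 or 4 (differences -0.79 to -0.66). Among arrays at the higher level alone the 16-week difference of Xcl1 was -0.59 (limma adjusted p = 0.13). The array means of the 12 markers of T or NK cells were 5.29 to 5.69 at 16 weeks, against 5.62 to 6.01 in controls.

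Cx3cl1, fractalkine, which endothelium displays, had 8.41, 8.33, 8.52 and 8.67 in controls, 8.59, 8.40, 8.62 and 8.86 at 8 weeks, 8.09, 9.28, 9.0005 and 8.98 at 16 weeks and 8.13, 8.81, 8.66 and 8.30 at 24 weeks. At 16 weeks 3 arrays lay above and 1 below all controls (log2 difference 0.36, limma adjusted p = 0.30). Without the low array, replicate 1, the Cx3cl1 difference was 0.61 and passed (limma adjusted p = 0.034). Its receptor Cx3cr1, carried by resident macrophages and monocytes, had 5.49, 5.56, 5.56 and 5.79 in controls, 5.63, 5.71, 5.63 and 5.76 at 8 weeks, 5.68, 5.84, 5.76 and 5.63 at 16 weeks and 5.78, 5.85, 5.80 and 6.17 at 24 weeks. The Cx3cr1 difference was 0.30 at 24 weeks (95% interval 0.09 to 0.51, limma adjusted p = 0.14) and 0.13 at 16 weeks.

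Of the 12 signalling receptors, 1, Ccr1, passed as higher at 16 weeks, against 5.83% of all genes, and no other passed at that time. None passed at 8 weeks (0.0563% of all genes did) or at 24 weeks (0.907%). Ccr1, a receptor of monocytes and macrophages for Ccl3, Ccl5, Ccl7 and, in the mouse, Ccl6 and Ccl9, had 5.60, 5.51, 5.09 and 5.56 in controls, 6.17, 5.81, 5.90 and 6.17 at 8 weeks, 7.16, 6.61, 5.78 and 6.42 at 16 weeks and 6.18, 5.62, 6.24 and 5.38 at 24 weeks. Of the 12 ACF arrays, 11 lay above all controls. The mean was 6.49 ± 0.57 at 16 weeks, against 5.44 ± 0.24 in controls (2.08-fold, log2 SE 0.24, limma adjusted p = 0.011). Replicate 3 at 16 weeks was the lowest of its group for Ccr1, Ccl2, Ccl6 and Ccl7, and it had the lowest macrophage marker mean of the group, 8.26. Replicate 1 had the highest macrophage marker mean, 9.08, and was the lowest of the group for Ackr2, Pf4, Cxcl16 and Ccl9. Replicates 1 and 2 at 16 weeks were at the higher array level and replicates 3 and 4 at the lower. How the members relate to the macrophage markers was not tested. Among the ligands of Ccr1, then, Ccl7, Ccl6 and Ccl9 passed as higher at 16 weeks, and Ccl3 (-0.07) and Ccl5 (-0.72) did not pass.

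Ccr2, the receptor of inflammatory monocytes for Ccl2 and Ccl7, had 4.38, 4.09, 4.10 and 4.39 in controls, 4.64, 4.05, 4.60 and 4.08 at 8 weeks, 4.68, 4.16, 4.20 and 4.45 at 16 weeks and 4.05, 4.02, 4.17 and 4.10 at 24 weeks. Its groups overlapped at each time, with log2 differences of 0.10, 0.13 and -0.15 (95% interval at 16 weeks -0.18 to 0.44). With a mean of 4.26 over the 16 arrays, Ccr2 was dim and cannot be told from background. Cxcr4, the receptor of Cxcl12, had 8.47, 8.60, 8.35 and 7.71 in controls, 7.54, 7.38, 8.85 and 8.13 at 8 weeks, 7.28, 8.91, 7.85 and 9.24 at 16 weeks and 8.10, 8.35, 7.89 and 7.50 at 24 weeks. The 16-week group spanned 1.97 on the log2 scale, and its difference of 0.04 had an interval from -0.76 to 0.84. The remaining 8 signalling receptors (Ccr3, Ccr4, Ccr6, Ccr10, Cxcr1, Cxcr2, Cxcr3 and Cxcr5 for eosinophils, T cells, B cells and neutrophils) did not pass, and at 16 weeks they lay between -0.29 (Cxcr3) and 0.10 (Ccr4). Ccr4 and Cxcr2, with means of 3.87 and 4.13, were dimmer than Ccr2, and Ccr3 (4.42) and Cxcr1 (4.58) were nearly as dim. Such dim probe sets cannot be told from background.

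**Figure D4:**
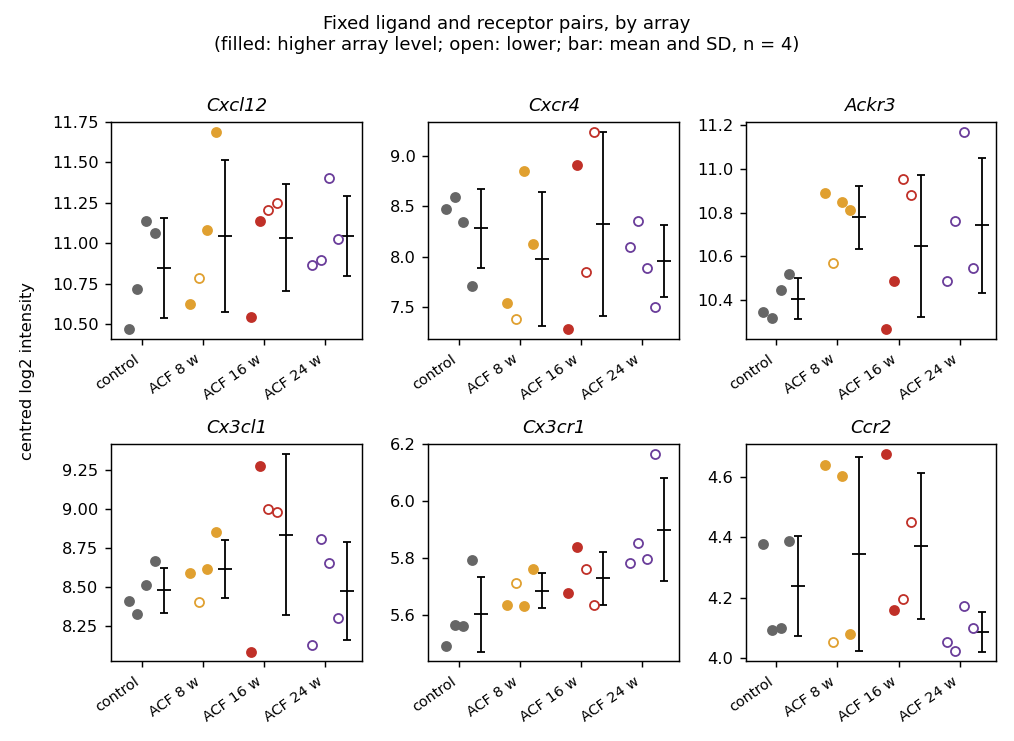
Centred log2 intensity (y axis) in each of the 16 arrays, by group (x axis), for Cxcl12 with its receptors Cxcr4 and Ackr3, Cx3cl1 with its receptor Cx3cr1, and Ccr2; filled points are arrays at the higher array level, open points those at the lower level, and the bar is the mean with SD (n = 4). None of the 6 passed in any comparison with control, and Cxcr4 spans 1.97 within the 16-week group.

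The ACF groups were also set against each other, from 16 against 8 weeks to 24 against 16 weeks and 24 against 8 weeks. No member passed in any of these comparisons, and 0% of all genes did. At 16 against 8 weeks 6 members had an unadjusted p under 0.05 in limma's test (8.69% of all genes), among them Ackr2 (log2 difference 0.68, adjusted p = 0.33), whose 16-week arrays all lay above its 8-week arrays. At 24 against 16 weeks 9 members did (9% of all genes), with Ccl27, Ccl7, Ccl20, Ccr1, Ccl9 and Ccr6 below 0 (5.49% of all genes) and Ackr4, Ccl24 and Cxcl11 above 0 (3.51%). The log2 differences there were -0.94 for Ccl7, -0.64 for Ccr1 and -0.39 for Ccl9 (limma adjusted p = 0.48, 0.48 and 0.34). At 24 against 8 weeks 3 members did (5.46% of all genes). The larger number of calls at 16 weeks therefore does not show a difference between the times.

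The members varied more within the ACF groups than in controls, a description with no test. The median SD over 4 arrays was 0.17 in controls, 0.19 at 8 weeks, 0.27 at 16 weeks and 0.26 at 24 weeks for the 47 members, and 0.13, 0.15, 0.17 and 0.18 for all genes. A range above 1 on the log2 scale was seen for 1 member in controls (2.13%, against 1.86% of all genes), 9 at 8 weeks (19.1%, against 3.04%), 14 at 16 weeks (29.8%, against 5.37%) and 10 at 24 weeks (21.3%, against 4.17%). This rule was chosen after the values were seen. Ackr1, Ccl2, Ccl7, Ccl21 and Cxcl1 exceeded it in all 3 ACF groups. The groups did not overlap for 6 members at 8 weeks, all higher (12.8%, against 3.43% of all genes, with none lower, against 2.73%), for 12 higher (25.5%, against 10.1%) and 1 lower at 16 weeks (2.13%, against 6.32%), and for 3 higher (6.38%, against 4.82%) and 1 lower at 24 weeks (2.13%, against 4.46%).

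The genes that act around the chemokines were counted from lists. Of 29 measured genes of chemokine receptor signalling, 6 were higher at 16 weeks (against 5.83% of all genes) and none lower. They were Grk5, a kinase that switches off G protein-coupled receptors (log2 difference 1.78, limma adjusted p = 0.00029), Tiam1, an activator of Rac (1.05), Jak2 (0.92), Stat3 (0.85), the protein kinase C Prkcb (0.63) and the G protein subunit Gng2 (0.49). Grk5 alone of the 29 passed at 24 weeks (1.06), and none passed at 8 weeks. Of 17 other chemoattractants and handling genes, Spp1, osteopontin (3.06), and the C5a receptor C5ar1 (0.83) were higher at 16 weeks. Cd74, the Mif receptor and invariant chain, was lower at 16 weeks (-0.63), and Rarres2, chemerin (0.60), was higher at 24 weeks. Of all genes, 5.83% passed as higher and 3.26% as lower at 16 weeks, and 0.612% as higher at 24 weeks.

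Of 15 measured genes of leucocyte adhesion, Sele, E-selectin (2.20), Itgb2 (1.02) and Itgb1 (0.55) were higher at 16 weeks, against 5.83% of all genes. Of 21 cytokine and NF-kappaB genes, which lie upstream of many chemokines, Tlr2 (1.23) and Tgfb2 (0.98) were higher at 16 weeks, a share near that of all genes, and Tnf (-0.25), Il6 (0.50) and Il1b (0.34) did not pass. No gene of either list passed at 8 or 24 weeks. The median log2 difference at 16 weeks was 0.17 for receptor signalling, 0.30 for the other chemoattractants, 0.12 for cytokines and 0.19 for adhesion, beside -0.0022 over all genes.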

How the data were processed

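Log2 intensities of 16 LV arrays were analysed. Per the labels, the authors isolated total RNA with a kit for fibrous tissue, followed the standard Affymetrix protocol and, in the submitters' processing notes, used RMA in Affymetrix Expression Console 1.2. The deposited numbers are log2 intensities, 1 for each probe set, and RMA by default corrects background and normalizes quantiles. Array medians nevertheless lay at 2 levels, for which no source used here gives a reason, and the probe set names come from a different Affymetrix rat design than that in the study's methods. The number of arrays limits the precision.

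Each array was centred on its median and set back to the common mean of 6.05. Of 31099 probe sets, 20832 had 1 symbol, 436 several and 9831 none, and for each of 14218 genes the probe set with the highest mean over 16 arrays was kept. Contrasts were fitted on all 16 arrays (limma 3.58.1, R 4.3.3, 12 residual degrees of freedom, Benjamini-Hochberg over all genes), and the script was tested on simulated data. Values were given by array for members that passed against control and for Ccl2, Ccr2, Cx3cl1, Cx3cr1, Cxcl12, Cxcr4, Ackr3, Pf4 and Ppbp, with partners by their differences. Array values of Ackr1, Ccl5, Ccl19, Ccl20, Ccl21, Cxcl1, Cxcl2 and Cxcl3 were added after they were seen. The members and lists were chosen with earlier results of these data known. All 47 gene IDs matched RefSeq, 8 members had several probe sets and 13 overlapped another gene. Alternatives covered scaling, array level, variance model, probe set choice, the methods' t-test and leaving out each array. The fit with array level as a block used the values as deposited, not centred. Figures were drawn with matplotlib.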

Additional observations from a re-analysis of the deposited data

Results flagged for a closer look

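Each group of 4 arrays was examined for 1 array far from the other 3 by Dixon's gap test, for the 17 genes whose values are given by rule. Of 68 groups, 5 held such an array, and chance flags about 1 in 20 groups. Ccl2 at 24 weeks was low in replicate 4, at 6.21, with the others between 7.41 and 7.65. Ccl6 at 16 weeks was low in replicate 3, at 9.05, with the others between 9.68 and 9.70. Ccl9 at 24 weeks was high in replicate 1, at 3.50, with the others between 3.25 and 3.26. Ccr1 was low in control replicate 3, at 5.09, with the others between 5.51 and 5.60. Cxcl12 at 16 weeks was low in replicate 1, at 10.54, with the others between 11.14 and 11.25. The 16-week difference of Ccr1 from control passed without control replicate 3 as well as without each other array.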

How the results depend on the processing

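Of the 9 members called at 16 weeks, Ackr2 passed in all 13 other settings and Ccr1 in 12 of 13, Pf4 passed in 13 of 14, and these 3 passed without each of the 16 arrays. Xcl1 passed in 10 of 13 settings, Cxcl16 in 10 of 14, Ccl7 in 9 of 13, Ccl6 in 9 of 14, Ccl27 in 8 of 13 and Ccl9 in 5 of 13, each in its own direction. Where a call changed, the cause was not tested. Depth here means signal: 13 of the 47 members lay in the upper 50% of genes by mean, and 3 of the 9 called did.

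The count of members called at 16 weeks was 4 with arrays as deposited, 1 by the methods' t-test after Benjamini-Hochberg (10 at the methods' threshold of 1.5-fold and unadjusted p) and 3 among the upper 50% of genes, Ccl6, Cxcl16 and Pf4, a setting that removes the dim genes from the test. Leaving out 1 array gave 3 to 10: control replicates 1, 2 and 3 gave 4, 3 and 5, and 16-week replicate 2 gave 5. The count was 10 among arrays at the higher level (9 higher, 1 lower) and 11 with the level as a block (10 higher, 1 lower). Each time 6 of the 9 were shared. Ackr1, Ccl2 and Ccl20 were added as higher in both, and Cxcl9 was added in both as the 1 lower member. At 8 weeks the count of members, otherwise 0, was 1 among arrays at the higher level (Ccl6), 2 at the methods' threshold and 2 with array weights (Ackr2 and Ccl6 both times), and 0 to 1 when 1 array was left out (Ackr2, without 24-week replicate 2). At 24 weeks the count of members, otherwise 1, was 4 as deposited (1 higher and 3 lower: Ccl5, Cxcl3 and Xcl1), 2 with cyclic loess, 2 at the methods' threshold and 2 with a trended, robust variance prior (Pf4 added each time), 4 with array weights (3 higher, 1 lower), 0 with the level as a block and 0 by the methods' t-test adjusted. Leaving out 1 array gave 0 to 2, with 0 for control replicates 1, 2 and 3 and 24-week replicate 3, and 2 for 8-week replicate 2, 16-week replicate 1 and 24-week replicate 4. At 16 against 8 weeks the count of members was 2 among arrays at the higher level (Ackr2 and Ccl27) and 1 at the methods' threshold (Ackr2). In 24 against 16 and 24 against 8 weeks it was 0 under each setting run. Comparisons with 24 weeks could not be run among arrays at the higher level, which holds none of that group.

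Same-numbered arrays of different groups deviated together little (r over genes -0.32 to 0.24, above 0.1 in 6 of 24 pairs). The median r was 0.032, against 0.007 for arrays with different numbers, and 3 of 16 arrays correlated best with their own number. The labels name no pairing by number, and these weak correlations cannot exclude one. With the replicate number as a block, 8 members were called at 16 weeks, 6 of them shared (Ccl6, Ccl7 and Ccl9 were lost, Ccl19 and Ccl20 added), 1 at 24 weeks and 0 at 8 weeks.

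Some differences turned sign, none past the threshold. With probe sets averaged, Cxcl12 was -0.011 at 8 weeks and -0.029 at 16 weeks. As deposited, Cxcr4 was -0.079 at 16 weeks, and at 24 weeks Ccl27 was -0.14, Ccl9 -0.19 and Cxcl12 -0.0065. Among arrays at the higher level at 16 weeks, Cxcr4 was -0.19, Ackr3 -0.029 and Cxcl12 -0.0070. With the level as a block at 24 weeks, Ccl9 was -0.047 and Ccr2 0.071, and with array weights Cx3cl1 was 0.035. Leaving out 1 array gave -0.015 to 0.34 for Cxcl12 at 8 weeks (below 0 without 8-week replicate 4), -0.27 to 0.39 for Cxcr4 at 16 weeks, -0.031 to 0.12 for Ccl27, -0.046 to 0.066 for Ccl9 and -0.12 to 0.11 for Cx3cl1 at 24 weeks.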
